A study of Mus musculus with 27 samples.

Results

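The 10 genes described here are targets and regulators of canonical Wnt signaling in the maternal mouse liver lobule: Axin2, Tbx3, Lgr5, Lgr4, Rnf43, Znrf3, Nkd1, Sp5, Notum and Tcf7l2. They were taken by symbol from a list of Wnt targets, with no threshold on their values, and they are 10 of the 21823 genes in the table of fragments per kilobase of transcript, scaled to the mapped reads of each library (FPKM). All 10 passed the filter of at least 1 FPKM in at least 3 libraries, as did 12952 genes in all. RNA was sequenced from laser-microdissected zones of the liver of adult wild-type C57BL/6 female mice (C57BL/6N in the study's methods) that were non-pregnant (NP) or at 8 or 16 days post-coitum (8 dpc, 16 dpc). Zone 1 is periportal, zone 3 pericentral, and zone 2 is the midlobular band. No group carried a transgene, a mutation or a treatment other than pregnancy. Each of the 9 groups of stage and zone held 3 libraries, 27 in all, each from 2 mm2 of tissue. The labels do not say which livers the libraries came from, so the p-values measure the spread between these libraries.

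In canonical Wnt signaling, a Wnt ligand binds a Frizzled receptor and an Lrp co-receptor, beta-catenin escapes degradation, and with TCF/LEF factors it turns on target genes. R-spondins, which bind Lgr4 and Lgr5, raise the signal by removing the ubiquitin ligases Rnf43 and Znrf3 that otherwise clear Frizzled from the cell surface. In the liver, endothelial cells of the central vein secrete Wnt ligands and R-spondin, and the pathway is known for setting the pericentral gene program of hepatocytes.

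Hepatocyte markers were high in all libraries, with a mean log2(FPKM + 1) of Alb, Apoa1, Ttr, Hnf4a and Tat between 9.93 and 12.2. Over the stages, 12 of 12 listed periportal genes were lower in zone 3 than in zone 1 (2.7% of all genes). All 12 of 12 listed pericentral beta-catenin-dependent genes were higher (2.89% of all genes). These lists were chosen with earlier results of these data known, so they describe the zones and do not test the labels. A set of 6 libraries stood apart. All mice were labeled female, yet 4 Y-linked genes summed to between 7.92 and 23.2 FPKM in these 6, against at most 2.97 in the other 21. The mean log2(FPKM + 1) of 7 connective tissue and smooth muscle genes was 5.31 to 7.32 in the 6 and 0.903 to 4.63 in the 21. These libraries were NP zone 1 replicate 1, NP zone 3 replicate 2, 8 dpc zone 1 replicate 1, 8 dpc zone 2 replicate 2, 16 dpc zone 2 replicate 3 and 16 dpc zone 3 replicate 3. They are called the Y-linked libraries below, and results that rest on them are given with and without them.

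Of the members, 6 had a promoter in the RefSeq table used here (build GRCm38.p6, from 250 bases before to 50 bases after the transcription start). Tbx3, Lgr5, Znrf3 and Notum had no entry. The sequence TCAAAG, a form of the core of the TCF/LEF motif, was searched on both strands. Other forms, such as ACAAAG, were not counted, and they are not in capitals below. TCAAAG was found in 1 member, Sp5, and in 16% of the 32851 promoters in the table. Promoters with 2 or more matches, as in Sp5, made up 1.73%. The bases before the start are shown for the 4 members with an entry that were higher in zone 3 with stages averaged, so that the window with matches (Sp5) can be read against those without, with each match in capitals and every sequence on the plus strand.
Sp5, chr2:70474673-70474922: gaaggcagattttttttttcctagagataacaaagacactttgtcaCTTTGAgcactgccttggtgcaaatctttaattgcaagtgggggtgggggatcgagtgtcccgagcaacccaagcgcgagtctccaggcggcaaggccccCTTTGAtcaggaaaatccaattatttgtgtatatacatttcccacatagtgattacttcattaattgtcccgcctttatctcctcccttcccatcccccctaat
Axin2, chr11:108920099-108920348: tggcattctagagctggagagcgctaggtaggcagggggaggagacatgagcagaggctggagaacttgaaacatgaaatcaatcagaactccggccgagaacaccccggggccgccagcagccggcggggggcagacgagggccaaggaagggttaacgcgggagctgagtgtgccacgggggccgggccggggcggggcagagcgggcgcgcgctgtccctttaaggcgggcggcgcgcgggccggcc
Nkd1, chr8:88527383-88527632: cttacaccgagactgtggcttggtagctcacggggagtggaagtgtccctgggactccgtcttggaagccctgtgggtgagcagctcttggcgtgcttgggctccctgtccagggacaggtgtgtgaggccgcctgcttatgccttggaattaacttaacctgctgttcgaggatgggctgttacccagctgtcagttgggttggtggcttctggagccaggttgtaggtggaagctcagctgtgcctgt
Rnf43, chr11:87662837-87663086: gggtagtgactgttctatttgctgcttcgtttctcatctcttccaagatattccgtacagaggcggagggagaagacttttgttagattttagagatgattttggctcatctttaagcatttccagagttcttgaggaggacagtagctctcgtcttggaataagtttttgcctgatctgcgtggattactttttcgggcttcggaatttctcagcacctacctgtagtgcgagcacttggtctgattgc
Both Sp5 matches read TCAAAG on the minus strand (CTTTGA as printed), and they began 204 and 104 bases before the start. The windows of Axin2, Nkd1, Lgr4, Rnf43 and Tcf7l2 held none of these letters in this order. The RefSeq start of Nkd1 lies inside the gene as GENCODE draws it, and Rnf43 had 2 entries, of which the first is shown.

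Across the lobule, 8 of the 10 members were higher around the central vein. With the stages averaged, zone 3 exceeded zone 1 for Axin2, Tbx3, Lgr5, Rnf43, Znrf3, Nkd1, Sp5 and Notum at an adjusted p under 0.05 (limma on log2(FPKM + 1) with Benjamini-Hochberg adjustment), where 2.89% of all genes passed as higher. The size ran from 1.01 for Znrf3 to 3.73 for Tbx3 on this log2 scale. Lgr4 and Tcf7l2 did not pass. The median over the 10 members was 1.86, against -0.04 over all genes tested. All 8 passed in each of the 9 alternative settings, and when any single library was left out.

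**Figure D1:**
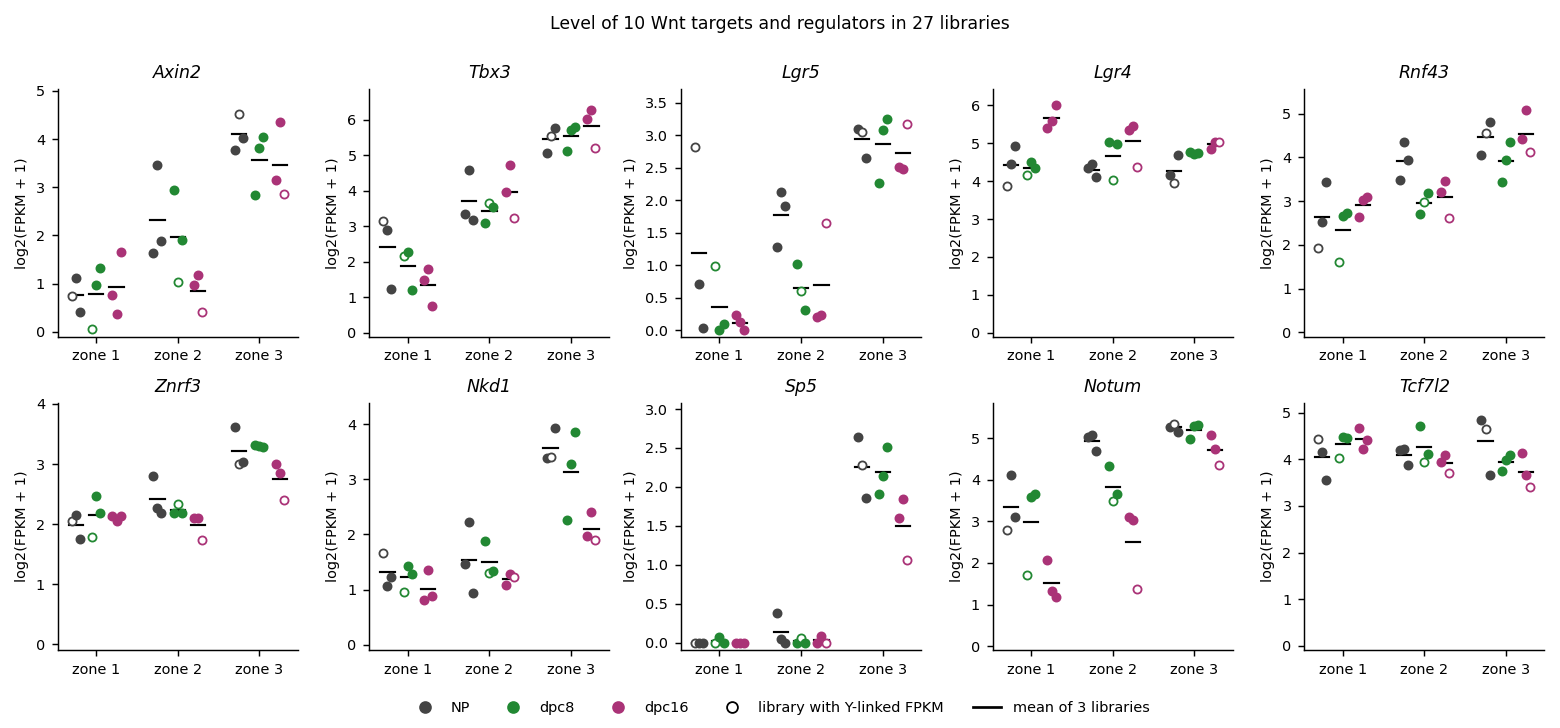
Level of each member in 27 libraries, as log2(FPKM + 1), by zone (x axis) and stage (color); each point is a library, open points are the 6 Y-linked libraries, and bars are means of 3 libraries. 8 genes are highest in zone 3, Sp5 is near 0 outside zone 3, and Lgr4 and Tcf7l2 are above 9 FPKM in all zones.

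Axin2 (chr11:108920349-108950783, plus strand, mm10) encodes a scaffold of the beta-catenin destruction complex and is a standard readout of the pathway. In NP mice it measured 0.670, 1.18 and 0.330 FPKM in the 3 libraries of zone 1, 2.11, 9.98 and 2.69 in zone 2 and 12.7, 21.9 and 15.3 in zone 3. At 8 dpc the values were 0.0362, 0.970 and 1.50 in zone 1, 6.72, 1.04 and 2.76 in zone 2 and 6.15, 13.1 and 15.4 in zone 3. At 16 dpc they were 0.696, 0.283 and 2.16, 0.972, 1.26 and 0.325 and 7.90, 19.6 and 6.24, in the same order of zones. Every zone 3 library lay above every zone 1 library of its stage, as for 6.05% of all genes in NP mice, 10.5% at 8 dpc and 6.39% at 16 dpc. The difference between zones 3 and 1 was 3.35 ± 0.53 (SE) on the log2 scale in NP mice (adjusted p = 0.000568, limma), 2.78 ± 0.53 at 8 dpc (adjusted p = 0.00474) and 2.53 ± 0.53 at 16 dpc (adjusted p = 0.00953). The 16 dpc call was lost when zone 1 replicate 1, zone 1 replicate 2 or zone 3 replicate 2 was left out (adjusted p from 0.0514 to 0.0935, limma). Zone 2 lay between the others without overlap in NP mice, overlapped both at 8 dpc and overlapped zone 1 at 16 dpc. In NP mice 5.17% of all genes were higher in zone 2 than in zone 1 without overlap, and 5.5% in zone 3 than in zone 2.

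Nkd1 (chr8:88521354-88594884, plus strand) encodes a Dishevelled-binding antagonist induced by Wnt. Its zone 3 libraries measured 9.38, 9.63 and 14.2 FPKM in NP mice, 3.78, 8.72 and 13.5 at 8 dpc and 2.91, 4.31 and 2.72 at 16 dpc. In zones 1 and 2 the 18 libraries lay between 0.753 and 3.66 FPKM. Zone 3 was above zone 1 at every stage without overlap, and the zone 3 values of 16 dpc all lay below those of NP mice (8.87% of all genes). The log2 difference between zones 3 and 1 was 2.25 ± 0.35 in NP mice (adjusted p = 0.000469, limma) and 1.91 ± 0.35 at 8 dpc (adjusted p = 0.00312), and 1.08 ± 0.35 at 16 dpc, which did not pass (adjusted p = 0.203).

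Notum (chr11:120653788-120661175, minus strand) encodes a secreted enzyme that removes the lipid from Wnt ligands. It measured 5.87, 16.4 and 7.59 FPKM in zone 1, 31.7, 32.8 and 25.0 in zone 2 and 37.5, 39.4 and 34.6 in zone 3 of NP mice. At 8 dpc the values were 2.26, 11.0 and 11.5, 19.1, 10.1 and 11.5 and 30.4, 38.0 and 38.8. At 16 dpc they were 3.17, 1.51 and 1.25, 7.63, 7.24 and 1.57 and 32.6, 25.5 and 19.5. Zone 3 was above zone 1 at every stage without overlap, and in zones 1, 2 and 3 the values of 16 dpc all lay below those of NP mice (as for 8.01%, 9.59% and 8.87% of all genes). The log2 difference between zones 3 and 1 was 1.92 ± 0.47 in NP mice (adjusted p = 0.0393, limma), 2.21 ± 0.47 at 8 dpc (adjusted p = 0.0118) and 3.20 ± 0.47 at 16 dpc (adjusted p = 0.00016). The NP call was lost in 4 of 9 alternative settings and in 5 of 6 fits that left out a library. The 8 dpc call was lost without zone 1 replicate 1, a Y-linked library with the lowest Notum value of its group (adjusted p = 0.11, limma), without zone 3 replicate 2 (0.0583) and without zone 3 replicate 3 (0.0658). It was kept when all the Y-linked libraries were left out.

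Rnf43 (chr11:87662722-87735539, plus strand) and Znrf3 (chr11:5276324-5444847, minus strand) encode the paired ligases that remove Frizzled receptors. Rnf43 lay between 2.03 and 9.85 FPKM in the 9 zone 1 libraries, between 5.15 and 19.6 in zone 2 and between 9.85 and 33.1 in zone 3. Znrf3 lay between 2.38 and 4.51 FPKM in zone 1, between 2.35 and 5.97 in zone 2 and between 4.26 and 11.3 in zone 3. Within each stage, every zone 3 library exceeded every zone 1 library for both genes, as for 6.05%, 10.5% and 6.39% of all genes. Rnf43 passed at each stage, with log2 differences of 1.85 ± 0.38 in NP mice (adjusted p = 0.00971, limma), 1.57 ± 0.38 at 8 dpc (adjusted p = 0.0333) and 1.63 ± 0.38 at 16 dpc (adjusted p = 0.0227). Without the Y-linked libraries the Rnf43 differences were 1.45 in NP mice and 1.21 at 8 dpc and did not pass (adjusted p = 0.0816 and 0.0935, limma). Leaving out one library at a time ended the Rnf43 call in 3, 4 and 5 of 6 fits at the respective stages. Znrf3 passed in NP mice (1.23 ± 0.24, adjusted p = 0.00454, limma) and at 8 dpc (1.15 ± 0.24, adjusted p = 0.00846), and measured 0.64 ± 0.24 at 16 dpc (adjusted p = 0.328). The Znrf3 calls were lost without NP zone 3 replicate 1 (adjusted p = 0.0556, limma) and without 8 dpc zone 1 replicate 1, a Y-linked library (0.074). Both Znrf3 calls were kept when all the Y-linked libraries were left out.

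Sp5 (chr2:70474923-70477729, plus strand), a zinc-finger transcription factor and direct Wnt target, was at or near 0 outside zone 3. It was listed at 0 in 8 of 9 zone 1 libraries and in 5 of 9 zone 2 libraries, and the highest value in those zones was 0.296 FPKM. Zone 3 measured 5.26, 3.86 and 2.62 FPKM in NP mice, 2.75, 3.40 and 4.72 at 8 dpc and 2.03, 2.59 and 1.09 at 16 dpc. The annotation gives Sp5 a single transcript, and the steps between its low values corresponded to 47 to 144 reads in zone 3 libraries and 0 to 9 reads in the others. No zone 3 value overlapped those of zones 1 or 2. Within a stage, 6.05%, 10.5% and 6.39% of all genes were higher in zone 3 than in zone 1 without overlap (NP, 8 and 16 dpc). The shares for zone 3 over zone 2 were 5.5%, 7.3% and 3.72%. The log2 differences between zones 3 and 1 were 2.26 ± 0.24 in NP mice (adjusted p = 1.72e-06, limma), 2.17 ± 0.24 at 8 dpc (adjusted p = 3.84e-06) and 1.50 ± 0.24 at 16 dpc (adjusted p = 0.000414). Adding 1 to FPKM compresses low genes: with a pseudocount of 0.1 the stage-averaged difference for Sp5 was 4.84 in place of 1.98.

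Tbx3 (chr5:119670669-119684724, plus strand), a T-box repressor that marks pericentral hepatocytes, was the member with the largest stage-averaged difference on this scale; with a pseudocount of 0.1 its 4.20 lay below Sp5 (4.84) and Lgr5 (4.23). It measured 7.86, 6.43 and 1.35 FPKM in zone 1, 9.28, 23.3 and 8.09 in zone 2 and 32.7, 45.9 and 54.0 in zone 3 of NP mice. At 8 dpc the values were 3.46, 3.83 and 1.33, 7.49, 11.6 and 10.7 and 34.2, 51.0 and 54.6. At 16 dpc they were 1.83, 2.49 and 0.680, 14.6, 25.5 and 8.47 and 63.8, 77.2 and 35.7. The zones followed the order 1, 2, 3 without overlap at each stage. Of all genes, 5.17% in NP mice, 3.02% at 8 dpc and 3.98% at 16 dpc were higher in zone 2 than in zone 1 without overlap. For zone 3 over zone 2 the shares were 5.5%, 7.3% and 3.72%. The log2 difference between zones 3 and 1 was 3.04 ± 0.48 in NP mice (adjusted p = 0.000548, limma), 3.66 ± 0.48 at 8 dpc (adjusted p = 5.28e-05) and 4.48 ± 0.48 at 16 dpc (adjusted p = 2.16e-06).

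Lgr5 (chr10:115450311-115587780, minus strand), an R-spondin receptor and Wnt target, measured 6.05, 0.626 and 0.0209 FPKM in zone 1, 1.42, 3.36 and 2.74 in zone 2 and 7.58, 7.31 and 5.29 in zone 3 of NP mice. At 8 dpc the values were 0.982, 0 and 0.0710, 1.03, 0.516 and 0.234 and 3.80, 7.49 and 8.49. At 16 dpc they were 0.170, 0.0864 and 0, 0.147, 0.175 and 2.14 and 4.72, 4.60 and 8.06. Zone 3 stood clear of zone 1 at 8 and 16 dpc, but in NP mice 1 zone 1 library, replicate 1, reached zone 3 levels. That library was a Y-linked library, as were the highest library of 8 dpc zone 1 and the highest of 16 dpc zones 2 and 3. In 4 of the 6 groups with a Y-linked library that library had the highest Lgr5 of its group, and it was the lowest in none. The log2 difference was 2.50 ± 0.52 at 8 dpc (adjusted p = 0.00956, limma) and 2.61 ± 0.52 at 16 dpc (adjusted p = 0.00539). In NP mice it was 1.75 ± 0.52 and did not pass (adjusted p = 0.143, limma), while without the Y-linked libraries it was 2.51 and passed (adjusted p = 0.000752). The 8 dpc call was lost without zone 1 replicate 2 (adjusted p = 0.0588, limma), zone 3 replicate 2 (0.0571) or zone 3 replicate 3 (0.0745).

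Lgr4 (chr2:109917647-110014257, plus strand), the R-spondin receptor that hepatocytes express broadly, and Tcf7l2 (chr19:55741820-55933654, plus strand), the main TCF factor of liver, were present throughout the lobule. Lgr4 lay between 13.6 and 64.0 FPKM in zone 1, between 15.2 and 42.9 in zone 2 and between 14.6 and 31.9 in zone 3. Tcf7l2 lay between 10.7 and 24.5 FPKM in zone 1, between 12.1 and 25.3 in zone 2 and between 9.56 and 27.6 in zone 3. The stage-averaged difference between zones 3 and 1 was -0.15 for Lgr4, with a 95% interval from -0.51 to 0.22, and -0.25 for Tcf7l2, with an interval from -0.60 to 0.09. Neither passed (adjusted p = 0.794 and 0.538, limma). At 16 dpc alone both were lower in zone 3 than in zone 1 without overlap, as were 8.36% of all genes. Tcf7l2 then measured 24.5, 17.8 and 20.5 FPKM in zone 1, 14.5, 16.2 and 12.1 in zone 2 and 16.7, 11.6 and 9.56 in zone 3, so that zone 2 also lay below zone 1. The 16 dpc difference between zones 3 and 1 was -0.71 for Tcf7l2 (95% interval from -1.31 to -0.11, adjusted p = 0.448, limma) and -0.69 for Lgr4 (from -1.32 to -0.06, adjusted p = 0.519). The median FPKM of Lgr4 in zone 3 was 25.8 and that of Lgr5 was 7.31.

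**Figure D2:**
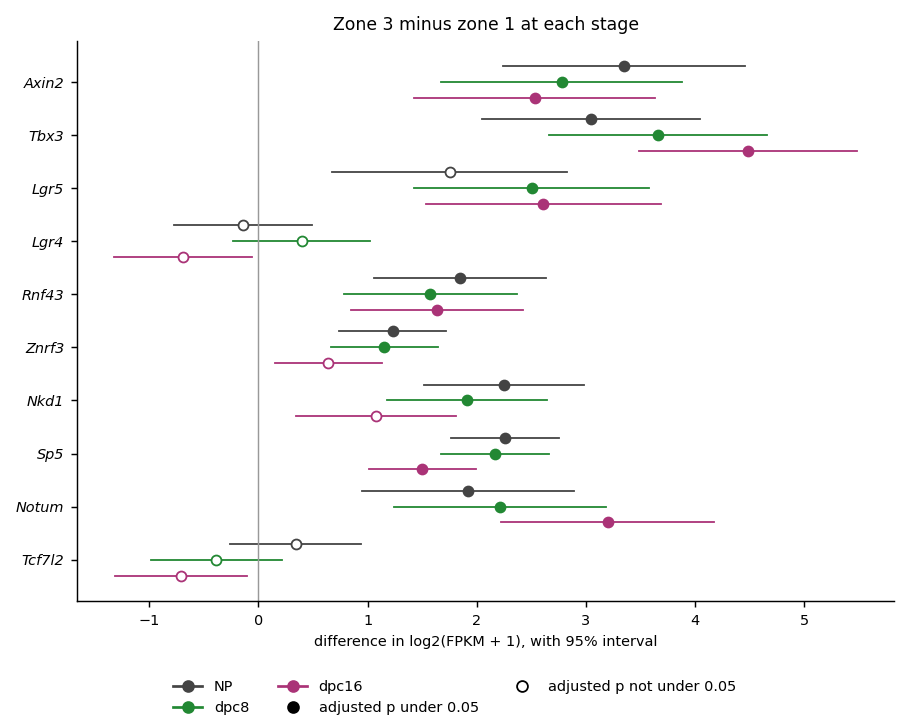
Difference between zone 3 and zone 1 in log2(FPKM + 1) for each member (y axis) at NP, 8 dpc and 16 dpc (color), with 95% intervals; filled points have an adjusted p under 0.05. Axin2, Tbx3, Rnf43, Sp5 and Notum are filled at all 3 stages, and Lgr4 and Tcf7l2 at none.

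Within single stages, zone 3 exceeded zone 1 for 7 members in NP mice (0.811% of all genes passed as higher), 8 at 8 dpc (0.926%) and 6 at 16 dpc (0.772%). When only the 2 groups compared entered the fit, the counts were 3, 4 and 3 (0.332%, 0.695% and 0.587% of all genes as higher). Central vein endothelial markers moved with these differences: 4 of the 6 (Rspo3, Wnt2, Wnt9b and Kit) were higher in zone 3 over the stages, and their mean log2(FPKM + 1) was 0.492 to 1.55 in zone 1, 0.636 to 1.78 in zone 2 and 1.90 to 2.49 in zone 3. None of the 6 was at 0 in all libraries, though Wnt9b was at 0 in 8. Biliary markers moved the other way: 3 of 5 (Sox9, Spp1 and Epcam) were lower in zone 3 and 0 higher, and their mean log2(FPKM + 1) was 1.90 to 3.40 in zone 1 and 0.0244 to 1.86 in zone 3, with Krt19 at 0 in 9 libraries and Krt7 in 12. Of 6 stellate cell markers, Dcn and Reln were higher and Ngfr lower in zone 3, and their summed level was 64.5 to 128 FPKM in zone 1 and 103 to 206 in zone 3. Of 7 general endothelial markers 1 (Eng) was higher, and of 5 Kupffer cell markers 1 (Clec4f) was lower. The part of these markers in the members' difference was not tested. In such bulk tissue, fewer cells of a type and less RNA per cell cannot be told apart.

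Between zones 2 and 3, with stages averaged, Axin2, Tbx3, Lgr5, Rnf43, Znrf3, Nkd1, Sp5 and Notum passed (1.07% of all genes as higher), with log2 differences from 0.88 for Znrf3 to 1.99 for Axin2. Rnf43, at 0.98, did not pass after quantile normalization (adjusted p = 0.0507, limma). Between zones 1 and 2 only Tbx3 (1.82 ± 0.28, adjusted p = 0.000568, limma) and Notum (1.14 ± 0.27, adjusted p = 0.0415) passed (0.409% of all genes as higher), and the Notum call was lost in 4 of 9 alternative settings and in 12 of 18 fits without one library. The step between zones 1 and 2 made up 48.9% of the whole rise for Tbx3, 46.8% for Notum, 41.7% for Rnf43, 30.9% for Axin2, 21.0% for Lgr5, 13.3% for Nkd1, 13.1% for Znrf3 and 2.81% for Sp5. These shares are on the log2(FPKM + 1) scale, and the differences between genes were not tested. They varied by stage: for Notum the share was 83.5% in NP mice, 38.0% at 8 dpc and 30.9% at 16 dpc, and for Rnf43 it was 70.5%, 39.6% and 11.1%. For Tbx3 it was 42.4%, 42.3% and 58.6%. Axin2 had 46.8%, 42.4% and -2.93%, and Znrf3 35.1%, 7.74% and -19.6%. The negative shares mean that the fitted zone 2 level lay below that of zone 1 at 16 dpc. Within single stages, zone 3 exceeded zone 2 for 2 members in NP mice (0.178% of all genes as higher), 3 at 8 dpc (0.216%) and 3 at 16 dpc (0.317%), and Sp5 was among them at each stage. Without the Y-linked libraries Znrf3 (1.12, adjusted p = 0.0505, limma) and Nkd1 (1.52, adjusted p = 0.218) were lost at 8 dpc and Axin2 (2.68, adjusted p = 0.0529) at 16 dpc, while Lgr5 passed at 8 dpc (2.201, adjusted p = 0.0034) and at 16 dpc (2.29, adjusted p = 0.00367). At 16 dpc, where same-numbered libraries went together across zones, the count was 5 with the replicate number as a block (0.517% of all genes as higher). Tbx3 (1.86, adjusted p = 0.0308, limma) and Rnf43 (1.45, adjusted p = 0.00868) were added. In zones 2 and 3 of 16 dpc both genes were lowest in replicate 3, a Y-linked library in each zone (Tbx3 8.47 and 35.7 FPKM, Rnf43 5.15 and 16.5). Neither gene was gained when the Y-linked libraries were left out. Zone 2 exceeded zone 1 within a single stage for Tbx3 at 16 dpc (2.63 ± 0.48, adjusted p = 0.0198, limma), 1 member where 0.0618% of all genes passed as higher; this call was lost in 4 of 6 fits without one library, and without the Y-linked libraries Notum passed too (1.56, adjusted p = 0.039, limma). In NP mice (0.154%) and at 8 dpc (0.124%) limma called 0 members between zones 2 and 1, and 4 and 2 members had an unadjusted p under 0.05 (5.34% and 3.4% of all genes).

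**Figure D3:**
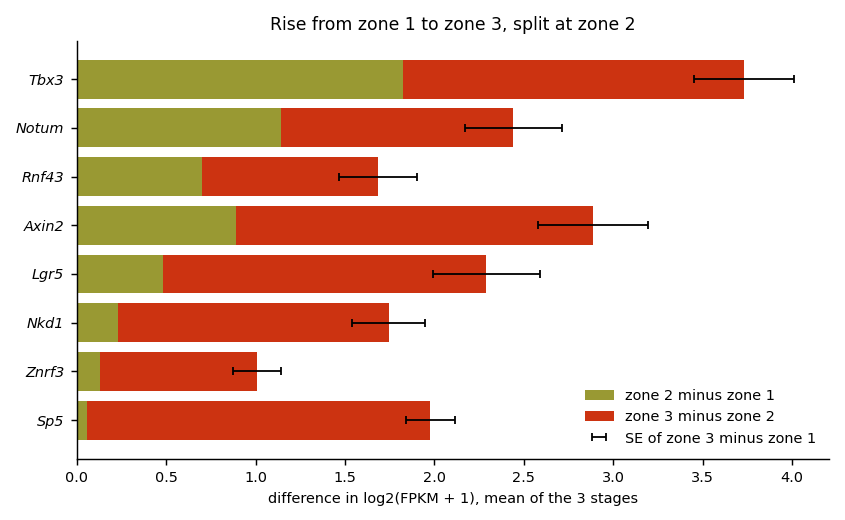
Rise of the 8 members from zone 1 to zone 3 in log2(FPKM + 1), mean of 3 stages (x axis), split into the step from zone 1 to zone 2 and the step from zone 2 to zone 3; whiskers are the SE of the whole rise. The first step makes up 48.9% of the rise for Tbx3 and 2.81% for Sp5.

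Over the 27 libraries, the 28 pairs among these 8 members had Pearson correlations of log2(FPKM + 1) between 0.59 and 0.92, with a median of 0.77. The 17 pairs with Lgr4 or Tcf7l2 ran from -0.42 to 0.09. With the group means removed, the median of the 28 pairs was 0.21, and their range was -0.57 to 0.61. For the 17 pairs with Lgr4 or Tcf7l2 that median was 0.25, with a range of -0.63 to 0.57. Among the genes outside the set most like Axin2 over the 27 libraries were Slc13a3 (r = 0.91), Blvrb (0.88), Rspo3 (0.87) and Ahr (0.87). Those most like Lgr5 were Npr2 (0.86), Slc13a3 (0.85), Ackr4 (0.83), Pparg (0.82) and Phldb2 (0.81). The libraries share their zones and stages, so these correlations describe the zonal pattern.

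At midgestation no member passed the test. For 8 dpc against NP, limma called 0 members in zone 1 (0.0309% of all genes passed), zone 2 (0.00772%), zone 3 (0.0154%) and the mean of zones (0.108%). At an unadjusted p under 0.05 there were 0, 3, 0 and 2 members, where 3.13%, 5.06%, 2.74% and 6.11% of all genes were. In zone 2 these were Lgr5 (-1.12 ± 0.52), Rnf43 (-0.97 ± 0.38) and Notum (-1.12 ± 0.47), and in the mean of zones Lgr5 (-0.67 ± 0.30) and Rnf43 (-0.61 ± 0.22). The 95% intervals of the zone-averaged change ran from -0.93 to 0.35 for Axin2, from -0.26 to 0.30 for Znrf3 and from -0.34 to 0.23 for Sp5. All 9 alternative settings also gave 0 members in each zone and in the mean.

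In late gestation Lgr4 rose, and Notum and Nkd1 fell. With zones averaged, these 3 members passed for 16 dpc against NP, where 11.8% of all genes did. In single zones 1 member passed in each: Lgr4 in zone 1 (0.996% of all genes were higher), Notum in zone 2 (1.64% lower) and Nkd1 in zone 3 (0.571% lower). The share of all FPKM taken by Alb ran from 3.71% to 21.0% across the libraries, and the summed hepatocyte markers had a median of 53916 FPKM in NP mice and 165392 at 16 dpc. Markers of other cells moved as well. The mean log2(FPKM + 1) of 6 stellate cell markers lay between 3.42 and 3.73 in NP mice and between 2.83 and 3.35 at 16 dpc, without overlap, although by limma 1 of the 6 (Lrat) was lower and 0 were higher. That of the 7 connective tissue and smooth muscle genes had a median of 3.37 in NP mice (1.63 to 6.70) and 1.39 at 16 dpc (0.903 to 7.32), and limma called 0 of the 7, with 0 at an unadjusted p under 0.05. Of 5 Kupffer cell markers Clec4f and Cd5l were lower, of 7 endothelial markers Cdh5 was lower, and of 3 red cell markers Alas2 was higher. The part of these markers in the changes of the members was not tested.

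Lgr4 measured 13.6, 20.8 and 29.5 FPKM in zone 1 of NP mice, 16.9, 21.8 and 19.5 at 8 dpc and 41.6, 46.7 and 64.0 at 16 dpc. In zone 2 the values were 19.4, 21.0 and 16.3, 31.8, 15.2 and 30.4 and 39.6, 42.9 and 19.8 at the 3 stages. In zone 3 they were 17.0, 14.6 and 24.9, 26.1, 25.4 and 25.8 and 28.0, 31.9 and 31.8. In zones 1 and 3 every 16 dpc library was above every NP library (9.42% and 7.84% of all genes) and every 8 dpc library (9.8% and 11.1%), and in zone 2 the lowest 16 dpc library, a Y-linked one, fell among the NP values. The rise from NP to 16 dpc was 0.90 ± 0.18 on the log2 scale over the zones (adjusted p = 0.00137, limma) and 1.26 ± 0.30 in zone 1 (adjusted p = 0.0368). From 8 to 16 dpc it was 0.65 ± 0.18 over the zones (adjusted p = 0.0179, limma) and 1.33 ± 0.30 in zone 1 (adjusted p = 0.0241). Without the Y-linked libraries, in which Lgr4 was the lowest of its group in 5 of 6 cases, the rise from NP was 0.86 over the zones (adjusted p = 0.000178, limma), and in zone 2 it was 1.09 and passed (adjusted p = 0.00593), in place of 0.75 with all libraries (adjusted p = 0.205). The zone-averaged rises passed in all 9 alternative settings and in all 18 fits without one library, whereas the zone 1 calls were lost in 5 of 6 such fits against NP and in 6 of 6 against 8 dpc.

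Notum fell by 1.59 on the log2 scale over the zones from NP to 16 dpc (SE 0.27, adjusted p = 0.000349, limma) and by 1.08 from 8 to 16 dpc (adjusted p = 0.0109). The fall from NP was 2.43 in zone 2 (adjusted p = 0.00495, limma), where the 16 dpc libraries measured 7.63, 7.24 and 1.57 FPKM and the NP libraries 31.7, 32.8 and 25.0. In zone 1 the change was -1.82 ± 0.47 (adjusted p = 0.0576, limma) and in zone 3 it was -0.54 ± 0.47 (adjusted p = 0.788). The lowest zone 2 library at 16 dpc was a Y-linked one, and without these libraries the zone 2 change was -1.86 (adjusted p = 0.00162, limma). Zone 1 then passed too, at -2.09 from NP (adjusted p = 0.000734, limma) and -2.10 from 8 dpc (adjusted p = 0.000607). Lgr5 did not pass for 16 dpc against NP with all libraries (-0.78 over the zones, adjusted p = 0.0987, limma), and without the Y-linked libraries it did, at -0.73 over the zones (adjusted p = 0.0205) and -1.55 in zone 2 (adjusted p = 0.0131). The zone-averaged falls of Notum, from NP and from 8 dpc, passed in all 9 settings and all 18 fits without one library.

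Nkd1 fell by 1.48 on the log2 scale in zone 3 from NP to 16 dpc (SE 0.35, adjusted p = 0.0335, limma), from 9.38, 9.63 and 14.2 FPKM to 2.91, 4.31 and 2.72. This call was lost in each of the 6 fits without one library and without the Y-linked libraries (-1.46, adjusted p = 0.0969, limma). Over the zones the change was -0.71 ± 0.20 (adjusted p = 0.0241, limma), and it was lost after quantile normalization (-0.63, adjusted p = 0.0767), without the Y-linked libraries (-0.65, adjusted p = 0.0878) and when the library of NP zone 2 replicate 2 (0.059), NP zone 3 replicate 3 (0.0541) or 16 dpc zone 1 replicate 1 (0.0503) was left out. Sp5, whose zone 3 values of 16 dpc also lay below those of NP mice, changed by -0.76 ± 0.24 there and did not pass (adjusted p = 0.137, limma).

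**Figure D4:**
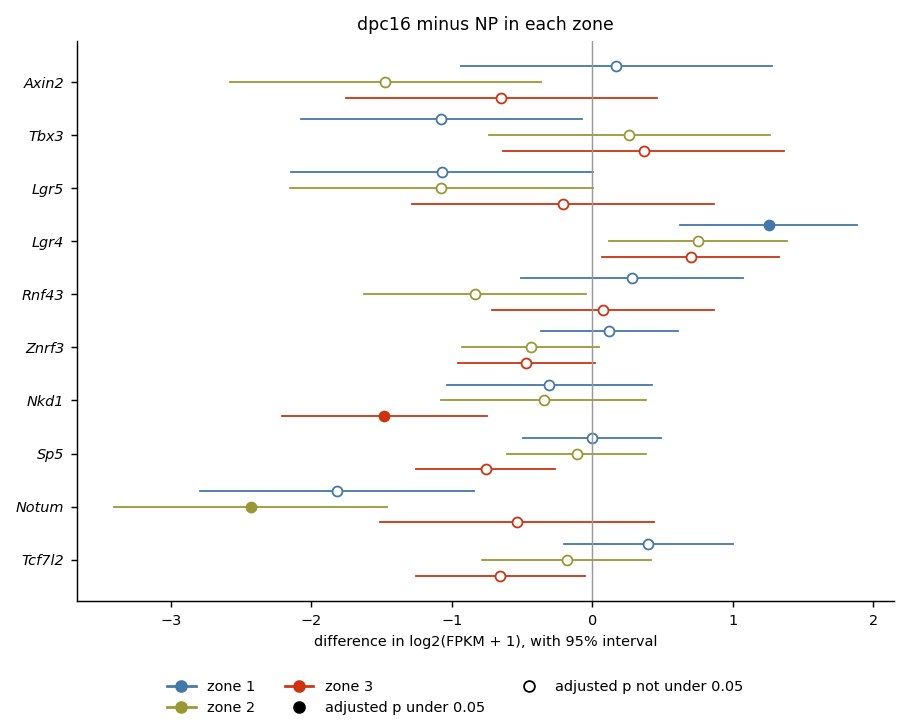
Difference between 16 dpc and NP in log2(FPKM + 1) for each member (y axis) in zones 1, 2 and 3 (color), with 95% intervals; filled points have an adjusted p under 0.05. Filled points are Lgr4 in zone 1 (1.26), Notum in zone 2 (-2.43) and Nkd1 in zone 3 (-1.48).

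For 16 dpc against 8 dpc, limma called Lgr4 in zone 1 (1 member, with 1.27% of all genes higher), 0 members in zone 2 (1.51% in either direction) and zone 3 (1.37%), and Lgr4 and Notum in the mean of zones (2 members, with 11.1% of all genes). In zone 2 Notum and Axin2 had an unadjusted p under 0.05, and in zone 3 Nkd1, Sp5 and Znrf3 did, where 12.1% and 12.4% of all genes did. The alternative settings gave between 0 and 1 members in zone 2 and between 0 and 2 in zone 3.

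Whether pregnancy changed the zone difference itself was tested directly. The difference between zones 3 and 1 at 8 dpc, minus that in NP mice, passed for 0 members by limma (0% of all genes), and 0 members had an unadjusted p under 0.05 (2.36% of all genes). At 16 dpc, minus that in NP mice, 0 members passed (0.054% of all genes), and 4 had an unadjusted p under 0.05 (3.16% of all genes). These were Tbx3, whose zone difference was larger at 16 dpc by 1.44 ± 0.68, and Nkd1 (-1.17 ± 0.50), Sp5 (-0.76 ± 0.34) and Tcf7l2 (-1.05 ± 0.41), whose difference was smaller or of the other sign. Each had an adjusted p of 0.993 by limma. At 16 dpc, minus that at 8 dpc, a comparison added after the values were seen, limma called 0 members (0.0463% of all genes), and 1, Lgr4, had an unadjusted p under 0.05 (5.72% of all genes). For Axin2 the change from NP to 16 dpc was -0.82, with a 95% interval from -2.38 to 0.75.

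The rest of the pathway was read from lists of its parts. Of 8 tested Wnt ligands and R-spondins, 3 were higher in zone 3 than in zone 1 over the stages and 0 were lower, where 2.89% of all genes were higher and 2.7% lower. Wnt2, an endothelial ligand, lay between 0 and 1.07 FPKM in zone 1, between 0.429 and 1.91 in zone 2 and between 2.66 and 6.67 in zone 3 (log2 difference between zones 3 and 1 of 1.99 ± 0.19, adjusted p = 9.71e-08, limma). Rspo3, the R-spondin of central vein endothelium, lay between 0.119 and 1.56 FPKM in zone 1 and between 3.24 and 7.12 in zone 3 (1.88 ± 0.19, adjusted p = 2.13e-07, limma). Wnt9b lay between 0 and 0.111 FPKM in zone 1 and between 0.579 and 1.96 in zone 3 (1.01 ± 0.14, adjusted p = 2.39e-05, limma). For all 3, the 9 zone 3 libraries lay above the 9 zone 1 libraries, and between stages limma called 0 of the 8 listed genes at 8 or at 16 dpc against NP with zones averaged (1 and 0 at an unadjusted p under 0.05).

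Of 14 receptors and secretion genes, Fzd8 was higher (0.69) and Ror1 lower (-0.55) in zone 3. Of 6 secreted inhibitors and 16 cytoplasmic transducers, limma called 0 between zones 3 and 1, and 1 and 0 had an unadjusted p under 0.05. Among 12 nuclear factors, 2 were higher in zone 3 and 4 lower, against the same 2.89% and 2.7% of all genes. Tcf7, a TCF factor, and Tle1, a co-repressor, were higher by 1.15 and 1.04 on the log2 scale. Ctnnbip1, an inhibitor that binds beta-catenin, was lower by the widest margin (-2.62 ± 0.21, adjusted p = 8.43e-09, limma). It lay between 6.37 and 17.3 FPKM in zone 1, between 2.91 and 6.67 in zone 2 and between 0.0703 and 2.70 in zone 3, and every zone 3 library lay below every library of the other zones. Tle4 (-1.50), Tcf7l1 (-1.36) and Pygo1 (-0.78) were also lower in zone 3; Pygo1, the last by size, was named after its value was seen. Among 10 other Wnt targets, Tnfrsf19 was higher (1.90) and Sox9, which also marks biliary cells, was lower (-1.99); 2 were lower without the Y-linked libraries. Of the pericentral genes, Slc1a2 (6.68), Oat (6.10) and Lhpp (5.92) differed most, and of the periportal genes Cyp2f2 (-7.40), Sds (-6.96) and Hal (-5.86). The 12 pericentral genes had a median difference of 4.79 and the 12 periportal genes one of -3.93, against -0.04 over all genes.

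**Figure D5:**
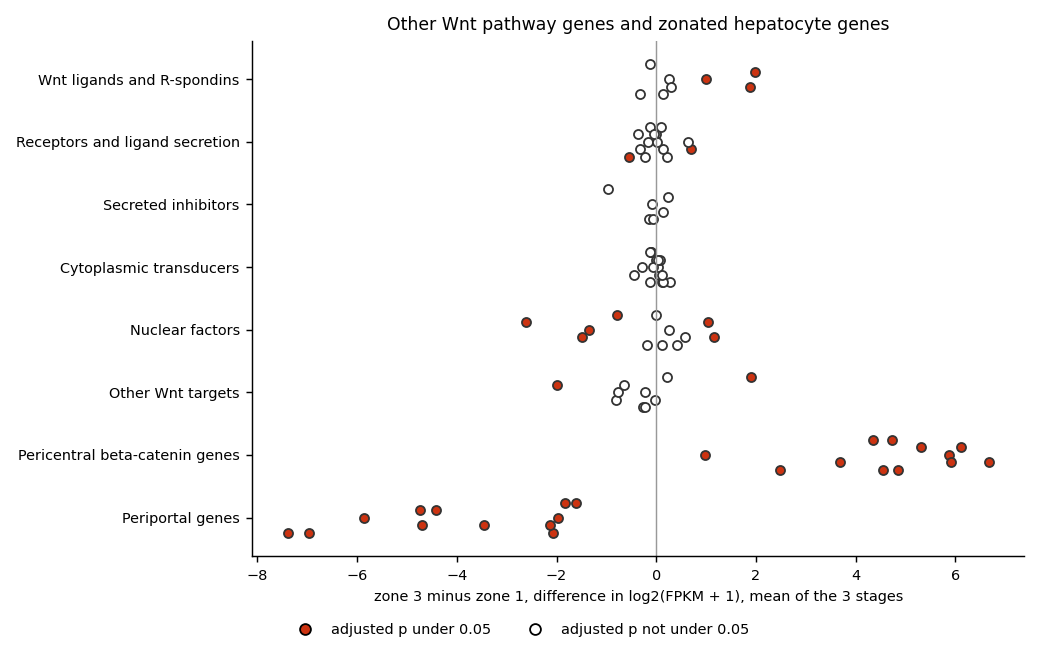
Difference between zone 3 and zone 1 in log2(FPKM + 1), mean of 3 stages (x axis), for every tested gene of 8 lists (y axis); filled points have an adjusted p under 0.05. Wnt2 (1.99), Rspo3 (1.88) and Wnt9b (1.01) are the filled points of the ligand list, and all 12 pericentral and all 12 periportal genes are filled on opposite sides of 0.

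Between NP and 16 dpc, with zones averaged, 7 of the 66 listed genes outside the pericentral and periportal lists passed (10.6%, against 11.8% of all genes). Fzd5 was higher (0.54), and Fzd4 (-0.72) and Porcn, the enzyme that attaches lipid to Wnt ligands (-0.63), were lower, 3 of 14 receptors and secretion genes. Tcf7l1 was higher (0.78), and the co-activator Bcl9l (-0.85) and the chromatin remodeler Chd8 (-0.67) were lower, 3 of 12 nuclear factors; without the Y-linked libraries 3 nuclear factors were higher and 1 was lower. Ccnd1, which encodes cyclin D1, was the 1 of 10 other targets that passed, from a median of 45.0 FPKM in NP mice to 15.4 at 16 dpc (-1.31 ± 0.25, adjusted p = 0.00109, limma). Of the secreted inhibitors and the cytoplasmic transducers, limma called 0, and 1 and 0 had an unadjusted p under 0.05. Of 12 pericentral genes 1 rose, the glutamate transporter gene Slc1a2 (1.10), and 4 fell, Lect2 (-2.72), Cyp1a2 (-1.34), Cyp2e1 (-1.26) and, named after its value was seen, Slc13a3 (-0.83). Of 12 periportal genes 6 fell and 0 rose, with the largest falls for Gls2 (-1.99), Ass1 (-1.33) and Hal (-1.24). At 8 dpc against NP, limma called 0 of the 90 tested genes of these lists with zones averaged, and 7 had an unadjusted p under 0.05, where 6.11% of all genes did.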

How the data were processed

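Per the labels and the study's methods, 5-µm liver sections were laser-microdissected and total RNA was sequenced after removal of ribosomal RNA. The authors trimmed reads with cutadapt, aligned them with HISAT2 (version 2.1.0) to mm10 and quantified protein-coding genes with Cuffdiff of Cufflinks 2.2.1, and the deposited values are FPKM. Raw counts were not analysed here. Steps between low FPKM values gave the worth of 1 read at 1 kb as 0.0300 to 0.133 FPKM per library, with 88.1% to 95.4% of the low values whole within 0.05 reads (genes with a single annotated transcript); this sets the precision for genes near 0.

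Values were analysed as log2(FPKM + 1). A filter kept 12952 of 21823 genes with at least 1 FPKM in at least 3 libraries. limma 3.58.1 in R 4.3.3 (trend and robust empirical Bayes) fitted 9 group means to all 27 libraries, and p-values were adjusted over all genes per comparison (Benjamini-Hochberg, threshold 0.05). A fold change on this scale understates that of low genes. The test of zone difference between 16 and 8 dpc was added after the values were seen, as was the run of the gene lists without the Y-linked libraries. The members, lists and alternatives were chosen with earlier results of these data known. All members were named, and of the other lists up to 3 genes per list and direction, those past the threshold with the largest change; Pygo1 and Slc13a3 were named beyond this rule. For likeness to Axin2 and Lgr5, the genes with the highest Pearson correlation over the libraries were named, and 1 of them is not reported here. Gene positions are from GENCODE vM21, promoters from RefSeq. The script was tested on simulated data. At 16 dpc same-numbered libraries went together across zones: their deviations from group means correlated at 0.263 to 0.863 in 9 of 9 pairs. This was not so in NP mice (4 of 9 pairs over 0.1) or at 8 dpc (5 of 9). In zones 1 and 3 same-numbered libraries of NP and 8 dpc also went together (3 of 3 pairs over 0.1 in each). No member was called there with or without the block. Some Y-linked libraries shared a number: replicate 3 in zones 2 and 3 at 16 dpc, and replicate 1 in zone 1 of NP mice and of 8 dpc. Zone 1 replicate 3 of 16 dpc had the highest Y-linked sum outside that set (2.97 FPKM). Whether the correlations came from shared livers or from these libraries was not tested.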

Additional observations from a re-analysis of the deposited data

Results flagged for a closer look

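The zone difference of Lgr4 took opposite directions at 8 and 16 dpc. At 8 dpc the 3 zone 3 libraries lay above the 3 zone 1 libraries, with a ratio of mean FPKM of 1.33 (25.8 over 19.4); 10.5% of all genes were higher without overlap in this comparison. At 16 dpc the 3 zone 3 libraries lay below the 3 zone 1 libraries, with a ratio of 0.602 (30.6 over 50.8), and 8.36% of all genes were lower without overlap. Neither difference passed on its own (adjusted p = 0.618 and 0.519, limma). The change between the stages, a comparison added after the values were seen, was -1.09 ± 0.43 on the log2 scale, with a 95% interval from -1.98 to -0.20, an unadjusted p of 0.0189 and an adjusted p of 0.719 by limma, and 0.0463% of all genes passed it.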

How the results depend on the processing

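Of 243 recomputed counts of members under the 9 other settings, 204 stayed within 1.5 times the main count, and of 252 recomputed with 1 library left out, 208 did. The counts averaged over stages for zones 3 and 1 (8 members) did not move in any. Fitting only the groups compared gave 3, 4 and 3 members for zone 3 against 1 (NP, 8 and 16 dpc), 0 for zone 3 against 2 in NP mice and at 16 dpc, 0 for zone 2 against 1 at 16 dpc and 1 averaged over stages, 0 for 16 dpc against NP in zones 1, 2 and 3, and 0 against 8 dpc in zone 1. A pseudocount of 0.1 gave 1 member for zone 3 against 2 at 8 dpc, 1 for zone 2 against 1 over stages, and 2 and 0 for 16 dpc against NP in zones 1 and 3. Array weights gave 6 and 7 for zone 3 against 2 at 8 and 16 dpc, 2 for zone 2 against 1 at 16 dpc, 2 and 4 for 16 dpc against NP in zones 1 and 2, and 2, 2 and 4 against 8 dpc in zone 1, zone 3 and over zones. The connective tissue covariate gave 5 for zone 3 against 2 at 16 dpc, 2 and 2 for 16 dpc against NP in zones 1 and 2, and 2 and 1 against 8 dpc in zones 1 and 2. Without the Y-linked libraries the counts were 2 for zone 2 against 1 at 16 dpc, 2, 3 and 0 for 16 dpc against NP in zones 1, 2 and 3, and 2 against 8 dpc in zone 1. No filter gave 1 for zone 2 against 1 over stages; quantile normalization gave 1 there and 0 for 16 dpc against NP in zones 1 and 3. The cause of these moves was not tested. A fit of only the groups compared holds fewer libraries, and the part of this in its counts was not tested either. The replicate block gave 5 for zone 3 against 2 at 16 dpc and 1 (Rnf43) for zone 2 against 1 in NP mice, where the numbers did not pair the libraries, and 1 call, Nkd1 for zone 3 against 2 at 8 dpc, was lost with it (1.62, adjusted p = 0.0736, limma); Tbx3 was gained with it for zone 3 against 2 in NP mice (1.75, adjusted p = 0.0444, limma) and at 8 dpc (2.11, adjusted p = 0.0168), and Rnf43 for zone 2 against 1 over stages (0.70, adjusted p = 0.0227). Beside these and the 16 dpc calls given above, it changed no call of a member. With each library left out in turn, the counts ran from 5 to 6, 5 to 8 and 4 to 6 for zone 3 against 1 (NP, 8 and 16 dpc), 1 to 2, 1 to 2 and 1 to 3 for zone 3 against 2, 0 to 1 for zone 2 against 1 at 16 dpc and 1 to 2 over stages, 0 to 1 for 16 dpc against NP in zone 1 and 0 to 0 in zone 3, and 0 to 1 against 8 dpc in zones 1 and 3. Lgr4 in zone 3 against 1 of NP mice, not called at -0.14, ran from -0.41 to 0.12 with a library left out: it was 0.12 without zone 1 replicate 3 and 0.02 without zone 3 replicate 2. Of the listed genes, the counts without the Y-linked libraries that moved by over 1.5 times were small ones, from 1 to 2 or 3 or from 2 to 1. Quantile normalization moved the median of all genes by over 0.1 on the log2 scale only for zone 3 against 1 at 8 dpc, from -0.08 to 0.04, and for its change from 8 to 16 dpc.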
